A study of Homo sapiens with 20 samples.

Results

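The 10 genes TAP1, TAP2, TAPBP, TAPBPL, ERAP1, ERAP2, LNPEP, PDIA3, CALR and CANX carry peptides into the endoplasmic reticulum (ER), trim them there and load them onto MHC class I. They were chosen by name for this role from the 43366 genes of the count table. Each was tested in every comparison below. Their levels came from stranded mRNA libraries of U2OS, an osteosarcoma cell line, in 5 WT clones and 5 clones labelled ZBTB48 Knockout (KO). Every clone was sequenced untreated and after 250 U/ml IFNγ for 24 h, which gives 4 groups of 5 libraries. No other agent or allele is named in the labels, and how the U2OS clones were made is not given in the sources used here. ZBTB48 mRNA was at 1.29 to 5.27 CPM (counts scaled to a common library total) in 8 KO-labelled libraries, but at 11.3 and 15.8 CPM in those of KO replicate 3, above or within the WT range of 8.03 to 11.6 CPM. ZBTB48 mRNA alone does not show whether a clone lacks the protein, which these libraries do not measure. Directions are therefore given for libraries labelled KO.

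Cytosolic proteasomes cut proteins into peptides, which the ATP-driven heterodimer of TAP1 and TAP2 pumps into the ER lumen. There the aminopeptidases ERAP1 and ERAP2 shorten them, while LNPEP does so in endosomes. Tapasin (TAPBP) bridges TAP and an empty class I molecule, the lectin calreticulin (CALR) and the oxidoreductase ERp57 (PDIA3) complete the loading complex, calnexin (CANX) folds the heavy chain before that, and TAPBPL edits peptides outside the complex. IFNγ is the classical inducer of this pathway, acting through IRF1 and the class I transactivator NLRC5.

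TAP2 and TAP1 lie 6469 bases apart on chromosome 6 of GRCh38 in the MHC, at chr6:32821831-32838739 and chr6:32845209-32853704, and TAPBP follows at chr6:33299694-33314078. ERAP1 (chr5:96760813-96935854), ERAP2 (chr5:96875939-96919716) and LNPEP (chr5:96936080-97037513) form a second group, and CANX lies on the same chromosome at chr5:179678656-179731641. TAPBPL is at chr12:6451649-6472006, PDIA3 at chr15:43746438-43773278 and CALR at chr19:12938609-12944489. Exons of 6 members overlap exons of another gene. The largest overlap is in TAPBP, whose 3799 exon bases include 1919 (50.5%) that RGL2 also uses on the same strand. How reads in shared bases were counted is not given in the sources used here.

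Promoter windows of 300 bases (250 before to 50 after an annotated start, from RefSeq on GRCh38.p14) were found for 9 of the 10 members, all but PDIA3. They were searched on both strands for GAAANNGAAA, a core of the interferon-stimulated response element (ISRE) that IRF factors bind, and for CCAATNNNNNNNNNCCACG, the ER stress response element (ERSE). The ISRE letters occurred in windows of 5 members, TAP1, TAP2, TAPBP, ERAP1 and ERAP2, and in 4.38% of the 27305 genes with a window. The ERSE letters occurred for 2 members, CALR and CANX, against 0.0916% of genes. Per window the shares were 3.57% for ISRE and 0.0769% for ERSE over 35116 windows. The ISRE and ERSE matches upstream of a start are shown. Each is written 5′ to 3′ on the gene's strand with the matched letters in capitals. In TAP1 and TAPBP 2 ISRE matches overlap each other, and the TAP1 and CALR matches read on the opposite strand.
TAP1, chr6:32853816-32853845, minus strand, ISRE: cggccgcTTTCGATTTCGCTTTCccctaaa
TAP2, chr6:32838778-32838807, minus strand, ISRE: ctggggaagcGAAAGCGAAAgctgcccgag
TAPBP, chr6:33314079-33314105, minus strand, ISRE: tttggagGAAAGTGAAAGTGAAAggag
ERAP2, chr5:96876460-96876489, plus strand, ISRE: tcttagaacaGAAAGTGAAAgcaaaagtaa
CALR, chr19:12938379-12938407, plus strand, ERSE: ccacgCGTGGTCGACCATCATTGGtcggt
CANX, chr5:179698773-179698801, plus strand, ERSE: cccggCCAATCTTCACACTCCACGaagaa
A match describes letters only. That of ERAP1 lies past its start and is not shown, and the TAPBPL and LNPEP windows held neither pattern.

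Library totals ran from 46652288 to 72952859 counts, with a median of 57494641, and every member had at least 49 counts in every library. CPM values were scaled with TMM factors, which correct for differences in composition between libraries. VIM, SPARC and COL1A1, markers of mesenchymal cells, were detected in every library (VIM at 1242 to 1810 CPM), while COL1A2 stayed under 1 CPM. Of 11 leukocyte, epithelial and endothelial markers, KRT19, CD3E, MS4A1 and CD14 stayed at or below 0.265 CPM and EPCAM reached the highest value, 12.7 CPM. Fold changes were tested with edgeR's quasi-likelihood test on the 10 libraries of a comparison, and p-values were adjusted by Benjamini-Hochberg over all genes tested. A gene passed at an adjusted p under 0.01. Replicates are separate clones. The treated library of KO replicate 4 resembled the untreated one of KO replicate 5 more than its own, and the reverse, so the paired tests of these clones are given with both pairings.

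IFNγ raised 6 of the 10 members in the WT clones, both TAP subunits, both tapasins and both ER aminopeptidases, all by more than 2-fold. Of the 19522 genes tested, 3.60% passed as higher and 2.48% passed as higher by more than 2-fold. The chaperones CALR, CANX and PDIA3 and the endosomal LNPEP did not pass in either direction, where 1.23% of genes passed as lower. The same 6 members passed in the KO-labelled clones, all by more than 2-fold, against backgrounds of 2.11% higher, 1.70% higher by more than 2-fold and 0.500% lower among 19385 genes. The median log2 fold change of the 10 members was 1.87 in WT and 1.75 in KO-labelled clones, beside -0.03 for all genes in both. For these 6 members every treated library lay above every untreated one in both genotypes, as for 6.68% and 6.07% of all genes. In such bulk libraries fewer cells that express a gene and less RNA per cell cannot be told apart.

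**Figure D1:**
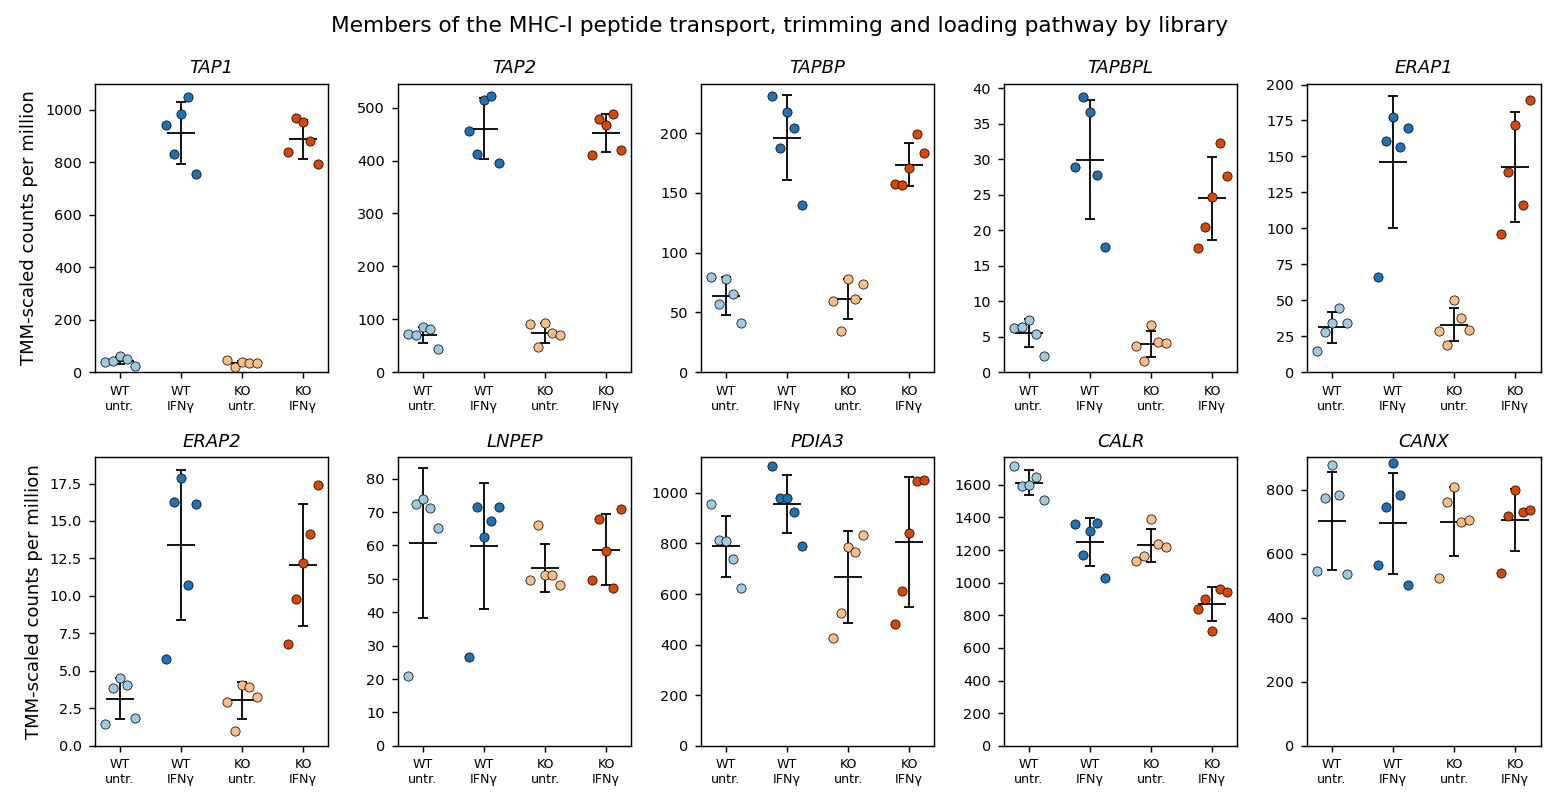
TMM-scaled CPM of the 10 members in the 20 libraries, with replicates 1 to 5 from left to right in each group, and group mean and SD (n = 5) as bars. The treated and untreated points of the first 6 members do not overlap, while CALR is highest in untreated WT (mean 1613 CPM) and lowest in treated KO-labelled libraries (mean 870 CPM).

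TAP1, one subunit of the transporter, showed the largest change of the members. Its untreated WT libraries held 38.2, 43.8, 59.3, 51.1 and 24.2 CPM for replicates 1 to 5, and the treated ones 943, 830, 984, 1049 and 755 CPM. The untreated KO-labelled libraries held 44.6, 20.9, 39.8, 33.3 and 33.8 CPM, and the treated ones 839, 968, 953, 883 and 793 CPM. The treated values of the genotypes interleave, and WT replicate 5 and KO replicate 2 were the lowest untreated libraries. TAP1 rose 21.3-fold in WT (95% interval 14.8 to 30.6, edgeR adjusted p = 8.54e-07) and 25.7-fold in KO-labelled clones (18.8 to 35.1, edgeR adjusted p = 3.20e-07). Only 95 of the 19522 genes had a larger log2 fold change in WT.

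TAP2, the partner subunit, rose less. Its WT libraries held 71.6, 69.4, 84.4, 81.0 and 43.7 CPM untreated and 457, 412, 514, 522 and 396 CPM treated. Its KO-labelled libraries held 91.4, 46.6, 92.7, 73.1 and 69.2 CPM untreated and 410, 479, 468, 489 and 420 CPM treated. As for TAP1, WT replicate 5 and KO replicate 2 were the lowest untreated libraries of their groups, and treated and untreated values lay far apart. The log2 fold changes were 2.73 (standard error 0.18, edgeR adjusted p = 4.40e-06) and 2.60 (standard error 0.18, edgeR adjusted p = 1.14e-05). TAP1 was the gene most like TAP2 over the 20 libraries (Pearson's r = 0.995 of log2 CPM, among 21052 genes). This likeness is a description, since the libraries share clones and treatments.

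The proportion of the 2 TAP subunits changed with IFNγ. Per kilobase of exon, TAP1 to TAP2 stood at 1.31 ± 0.15 (SD, n = 5) in untreated and 4.26 ± 0.15 (SD, n = 5) in treated WT libraries. In KO-labelled libraries the ratio was 0.99 ± 0.06 (SD, n = 5) untreated and 4.21 ± 0.23 (SD, n = 5) treated. It rose 3.26-fold in WT and 4.24-fold in KO-labelled clones, each with p = 0.00794 (two-sided exact permutation test, the smallest p it allows) and p = 0.0238 after Benjamini-Hochberg adjustment over 15 ratio tests. Ratio tests are read at an adjusted p under 0.05, a threshold that was not fixed together with the tests, and none of the 15 passed at the 0.01 used for genes.

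In untreated libraries the WT ratios, 1.15 to 1.51, all lay above those of the KO-labelled libraries, 0.92 to 1.05, a difference of 1.32-fold (exact permutation p = 0.00794, adjusted p = 0.0238). After IFNγ the ranges overlapped, 4.10 to 4.44 against 3.88 to 4.40, and the difference was 1.01-fold (exact permutation p = 0.714, adjusted p = 0.824). The log2 change of the ratio was 1.71 ± 0.18 (SD, n = 5) in WT and 2.09 ± 0.12 (SD, n = 5) in KO-labelled clones (SD 0.136 with the swapped pairs of replicates 4 and 5), and the difference of -0.38 had an exact permutation p of 0.0159 (adjusted p = 0.0398). Swapping the treated partners of KO replicates 4 and 5 cannot change this difference of means, and the exact permutation p was again 0.0159. Neither subunit alone passed between the genotypes. TAP1 shares 456 of its 2852 exon bases with PSMB8-AS1 on the opposite strand, which rose 9.40-fold in WT (edgeR adjusted p = 2.49e-04). Over all libraries PSMB8-AS1 held 7614 counts and TAP1 held 559327. Whether the overlap bears on the ratio was not tested.

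**Figure D2:**
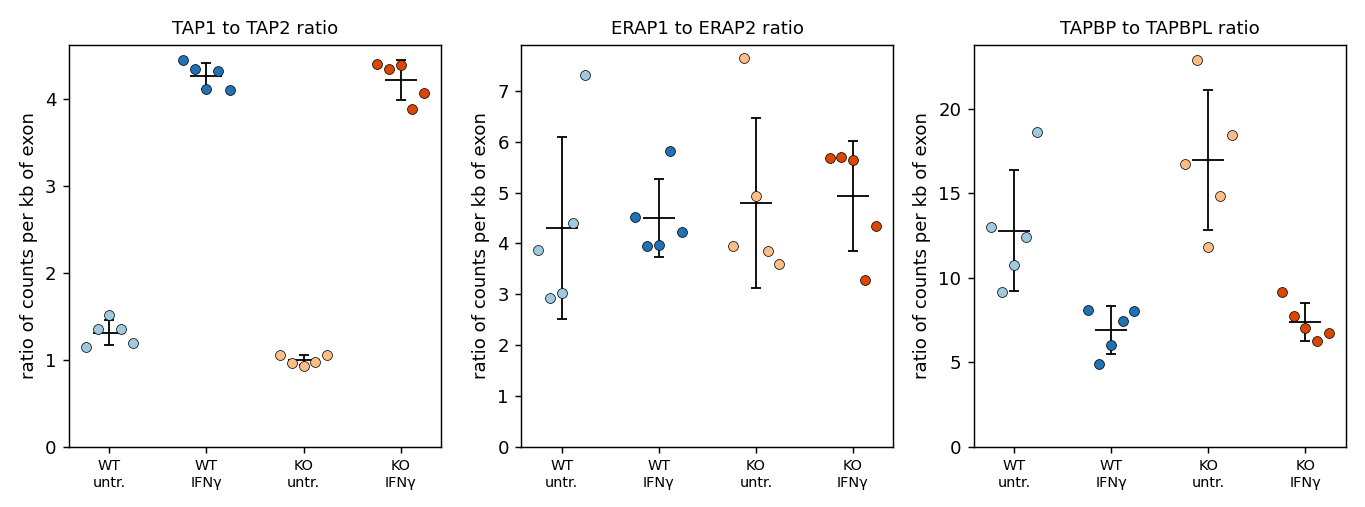
Ratios of TMM-scaled counts per kilobase of exon between paired members in each library, with group mean and SD (n = 5). TAP1 to TAP2 rises from about 1 to above 3.88 with no overlap, ERAP1 to ERAP2 shows overlapping groups, and TAPBP to TAPBPL falls with no overlap between treated and untreated libraries of a genotype.

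TAPBP, tapasin, held 79.3, 57.2, 77.5, 65.1 and 40.7 CPM in untreated and 231, 187, 218, 204 and 140 CPM in treated WT libraries, with replicate 5 lowest in both. It rose 3.10-fold (95% interval 2.30 to 4.18, edgeR adjusted p = 3.72e-04). In KO-labelled libraries it held 59.8, 34.3, 77.5, 61.3 and 73.4 CPM untreated and 158, 156, 171, 199 and 183 CPM treated, a rise of 2.83-fold (2.09 to 3.81, edgeR adjusted p = 0.00121). This was the smallest of the 6 rises in both genotypes. Its KO call was lost without KO replicate 1, 4 or 5 (adjusted p = 0.0129, 0.0179 and 0.0114), with log2 fold changes of 1.44 to 1.56. RGL2, which shares the exon bases given above, had a log2 fold change of -0.01 in WT (edgeR adjusted p = 0.971).

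TAPBPL, the tapasin homologue, is a low-abundance transcript. Its untreated WT libraries held 6.17, 6.33, 7.31, 5.32 and 2.21 CPM, and the treated ones 28.9, 38.8, 36.7, 27.7 and 17.6 CPM. WT replicate 5 was lowest in both conditions. The KO-labelled libraries held 3.61, 1.52, 6.65, 4.18 and 4.04 CPM untreated and 17.4, 20.4, 24.7, 32.3 and 27.6 CPM treated. The rise was 5.52-fold in WT (3.44 to 8.85, edgeR adjusted p = 4.90e-04) and 6.11-fold in KO-labelled clones (3.64 to 10.3, edgeR adjusted p = 0.00116). The latter call was lost without KO replicate 1, 4 or 5 (adjusted p = 0.01002, 0.0168 and 0.0165), with log2 fold changes of at least 2.51. Per kilobase the TAPBP to TAPBPL ratio fell from 12.8 ± 3.59 (SD, n = 5) to 6.91 ± 1.41 (SD, n = 5) in WT and from 16.9 ± 4.13 (SD, n = 5) to 7.37 ± 1.14 (SD, n = 5) in KO-labelled clones, without overlap and with an exact permutation p of 0.00794 each (adjusted p = 0.0238). The 2 genotypes did not pass a difference in this ratio, untreated (exact permutation p = 0.127, adjusted p = 0.238), treated (0.563 and 0.744) or in its change (0.119 and 0.238).

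ERAP1, the main trimming enzyme of the ER, stood at 14.3, 28.2, 34.1, 44.5 and 34.0 CPM in untreated and 65.8, 161, 177, 156 and 170 CPM in treated WT libraries. WT replicate 1 was the lowest in both conditions, by a wide margin after IFNγ. The rise was 4.76-fold in WT (2.93 to 7.73, edgeR adjusted p = 0.00105) and 4.33-fold in KO-labelled clones (2.87 to 6.51, edgeR adjusted p = 0.00101). The KO-labelled libraries held 28.8, 19.0, 50.0, 37.7 and 29.2 CPM untreated and 95.9, 139, 172, 116 and 189 CPM treated. The calls were lost without WT replicate 2 (adjusted p = 0.0132, log2 fold change 2.19) and without KO replicate 5 (0.0135 and 1.95).

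ERAP2, the related enzyme, was the rarest member. Its WT libraries held 1.48, 3.86, 4.51, 4.04 and 1.86 CPM untreated and 5.82, 16.3, 17.9, 10.7 and 16.1 CPM treated, and its KO-labelled ones 2.92, 0.992, 4.06, 3.91 and 3.25 CPM untreated and 6.77, 9.79, 12.2, 14.1 and 17.4 CPM treated. WT replicate 1 was again lowest in both conditions. It rose 4.29-fold in WT (2.4 to 7.66, edgeR adjusted p = 0.00482) and 3.98-fold in KO-labelled clones (2.24 to 7.06, edgeR adjusted p = 0.00948), in 5 of 5 clones of each genotype. Its call was lost without any of 4 clones in each genotype. Without WT replicate 2, 3, 4 or 5 its adjusted p was 0.0316, 0.0175, 0.0197 or 0.0268, with log2 fold changes of 1.89 to 2.27. Without KO replicate 1, 3, 4 or 5 it was 0.0312, 0.0437, 0.0520 or 0.0572, with log2 fold changes of 1.85 to 2.15, and it was 0.0127 when library totals replaced TMM.

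The ERAP1 to ERAP2 ratio per kilobase was 4.31 ± 1.79 (SD, n = 5) before and 4.50 ± 0.77 (SD, n = 5) after IFNγ in WT, and 4.8 ± 1.68 (SD, n = 5) and 4.93 ± 1.08 (SD, n = 5) in KO-labelled libraries. None of the 5 tests of this ratio passed, with exact permutation p-values from 0.484 to 0.825 (adjusted p from 0.744 to 0.825). ERAP2 was the gene most like ERAP1 over the 20 libraries and ERAP1 the one most like ERAP2 (Pearson's r = 0.957). Their spans overlap on opposite strands without shared exons.

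The number of members that passed in the KO-labelled clones changed when single clones were left out, which also leaves fewer libraries in the unpaired test. It was 6 with all clones and without KO replicate 2, 5 without KO replicate 3, 3 without KO replicate 1 or 4, and 2 without KO replicate 5, where TAP1 and TAP2 stayed past the threshold. In WT it was 6 without replicate 1, 4 without replicate 2 and 5 without replicate 3, 4 or 5. With single clones left out, the KO log2 fold changes ran from 1.38 to 1.61 (TAPBP), 2.46 to 2.88 (TAPBPL), 1.95 to 2.24 (ERAP1) and 1.84 to 2.15 (ERAP2). The share of all genes that passed in each of these smaller fits was not counted. Whether the drop in calls is particular to the members can therefore not be told. The paired fit was not repeated with single clones left out. Since every treated library of the 6 members lay above every untreated one, each was higher in 5 of 5 clones of both genotypes under any pairing. The swap of KO replicates 4 and 5 therefore could not change this count.

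LNPEP, the endosomal aminopeptidase, did not pass. In WT it held 20.8, 72.5, 73.8, 71.3 and 65.1 CPM untreated and 26.6, 71.5, 62.5, 67.4 and 71.4 CPM treated, with a fold of 0.998 (95% interval 0.596 to 1.67, edgeR adjusted p = 0.998). WT replicate 1 lay far below the other clones in both conditions, and the interval of this unpaired fit is wide. In the analysis paired by clone the log2 fold change in WT was 0.04, with a standard error of 0.08 (edgeR adjusted p = 0.702). The KO-labelled libraries held 48.1 to 66.1 CPM untreated and 47.1 to 71.0 CPM treated, a fold of 1.1 (0.885 to 1.38, edgeR adjusted p = 0.616). Without WT replicate 1 the log2 fold change in WT was -0.03 (edgeR adjusted p = 0.907).

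Genes around ERAP1, ERAP2 and LNPEP shared the low level of WT replicate 1, an observation made after the values were seen. Within 3 megabases of these members, all 15 other genes that averaged at least 1 CPM were lower in WT replicate 1 than in each of the other 4 WT clones, untreated and treated. Leaving the members out, their median ratio to the other WT clones was 0.329 untreated and 0.368 treated. Among 15115 genes at that level, WT replicate 1 was the lowest WT library for 21.1% untreated and 18.8% treated. CAST, which encodes the calpain inhibitor calpastatin and overlaps exons of ERAP1, held 49.7 CPM in untreated WT replicate 1 against 127 to 206 CPM in the others.

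The unbroken run of such genes, low in both conditions, counted 30 beside the 3 members and ran from NR2F1-AS1 to PJA2 (chr5:93409356-109409974). Low in both were 11.6% of all genes at this level and 30.5% of those on chromosome 5, or 27.3% of those on it outside the run. TTC37, 1.38 megabases from LNPEP, was the gene most like LNPEP over the 20 libraries (Pearson's r = 0.929), followed by TMEM161B-DT and CETN3 on the same chromosome (0.927 and 0.900). Without WT replicate 1 the rises of ERAP1 and ERAP2 in WT had log2 values of 2.26 and 2.11, beside 2.25 and 2.10 with it.

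**Figure D3:**
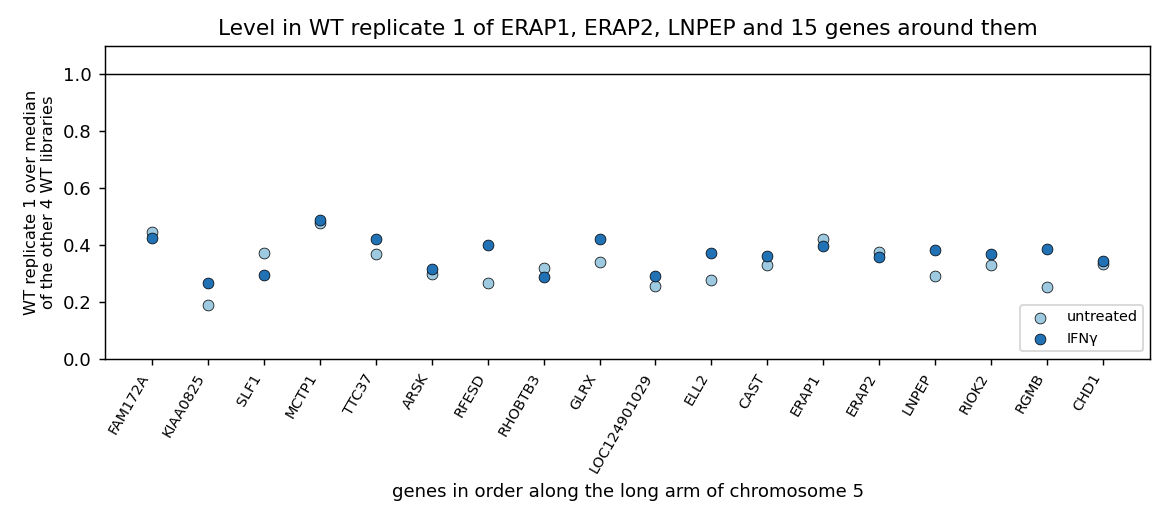
Level in WT replicate 1 divided by the median of the other 4 WT libraries for ERAP1, ERAP2, LNPEP and the 15 genes around them that averaged at least 1 CPM, in chromosomal order, with the line at 1 marking equality. All points lie below 0.5 in both conditions.

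CALR, the soluble lectin chaperone, was the most abundant member per kilobase in every group, and its values went the opposite way to those of the transporter. Untreated WT libraries held 1717, 1593, 1600, 1650 and 1507 CPM and treated ones 1361, 1167, 1315, 1363 and 1027 CPM. Untreated KO-labelled libraries held 1130, 1166, 1392, 1237 and 1219 CPM and treated ones 838, 902, 704, 964 and 944 CPM. Within each genotype every treated library lay below every untreated one, as for 4.43% of all genes in WT and 3.48% in KO-labelled clones. CALR was therefore lower in 5 of 5 clones of each under any pairing.

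The fold was 0.781 in WT (95% interval 0.660 to 0.925, edgeR adjusted p = 0.0625) and 0.708 in KO-labelled clones (0.597 to 0.840, edgeR adjusted p = 0.0212), so that neither passed. With the clone as a block, in the paired analysis, WT CALR passed (log2 fold change -0.36, edgeR adjusted p = 8.41e-05), as did WT PDIA3. In that fit 8 of 10 members passed, but so did 34.3% of all genes. In the KO-labelled clones the blocked adjusted p of CALR was 0.0168 with the clones as labelled and 0.00251 once the treated partners of KO replicates 4 and 5 were swapped, each of which correlated better with the other's untreated library. DESeq2 (adjusted p = 0.00109) and the fit over all 20 libraries (edgeR adjusted p = 0.00395) also put CALR past the threshold in the KO-labelled clones. Without KO replicate 3, whose ZBTB48 mRNA was not low, the log2 fold change of CALR there was -0.38.

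CALR was also the only member whose WT libraries all lay above all KO-labelled ones, in both conditions. That was 1 of 10 members, where the same held for 0.625% of genes in untreated and 0.506% in treated libraries. Untreated, the WT level was higher by 0.38 on the log2 scale, with a standard error of 0.10 (edgeR adjusted p = 0.873). After IFNγ it was higher by 0.52, with a standard error of 0.13 (edgeR adjusted p = 0.935). Neither passed over all genes, with unadjusted edgeR p-values of 0.00234 and 0.00218 and DESeq2 adjusted p-values of 0.0286 and 0.117, and leaving out any clone gave 0.36 to 0.43 untreated and 0.45 to 0.58 treated. The IFNγ changes in the genotypes differed by 0.13 on the log2 scale (95% interval -0.19 to 0.44, edgeR adjusted p = 1.00). Of 13 other ER chaperones and oxidoreductases tested, 12 had the higher fitted level in WT in each condition, with median log2 differences of 0.27 treated and 0.22 untreated beside -0.02 and -0.002 for all genes. None passed, while 6 treated and 5 untreated had an unadjusted edgeR p under 0.05, where 4.35% and 4.79% of all genes did in either direction. P4HB, a disulfide isomerase singled out after its values were seen, had log2 differences of 0.56 treated and 0.48 untreated (edgeR adjusted p = 0.648 and 0.879). The gene most like CALR over the libraries was TCTN2 (Pearson's r = 0.925), followed by the ER oxidoreductase PDIA4 (0.911).

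PDIA3, the thiol oxidoreductase ERp57 that pairs with tapasin, held 956, 814, 811, 738 and 625 CPM in untreated and 1106, 979, 982, 924 and 792 CPM in treated WT libraries. The treated library was the higher one in each clone and the ranges overlapped. The fold was 1.22 (95% interval 0.997 to 1.5, edgeR adjusted p = 0.207), while blocking on the clone gave a log2 fold change of 0.30 that passed (edgeR adjusted p = 1.30e-04). In KO-labelled clones it was 1.21 (0.821 to 1.78, edgeR adjusted p = 0.576), with KO replicates 1 and 2 at 424 and 527 CPM untreated and the other 3 at 768 to 833 CPM. Its pseudogene PDIA3P1 stood at 10.1 to 18.9 CPM and had a log2 fold change of 0.10 in WT (edgeR adjusted p = 0.693). Only reads with a single place in the genome were kept, so reads that fit both were lost and PDIA3 may be undercounted.

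CANX, the membrane-bound lectin chaperone, did not pass. It lay at 537 to 878 CPM in untreated and 501 to 882 CPM in treated WT libraries, a fold of 0.998 (95% interval 0.750 to 1.33, edgeR adjusted p = 0.997). In KO-labelled clones the fold was 1.01 (0.812 to 1.25, edgeR adjusted p = 0.978). WT replicates 1 and 5 and KO replicate 1 were lower than the other clones in both conditions. RMND5B and RUFY1, 1.53 and 0.0686 megabases away, were among the 3 genes most like CANX (Pearson's r = 0.890 and 0.873).

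**Figure D4:**
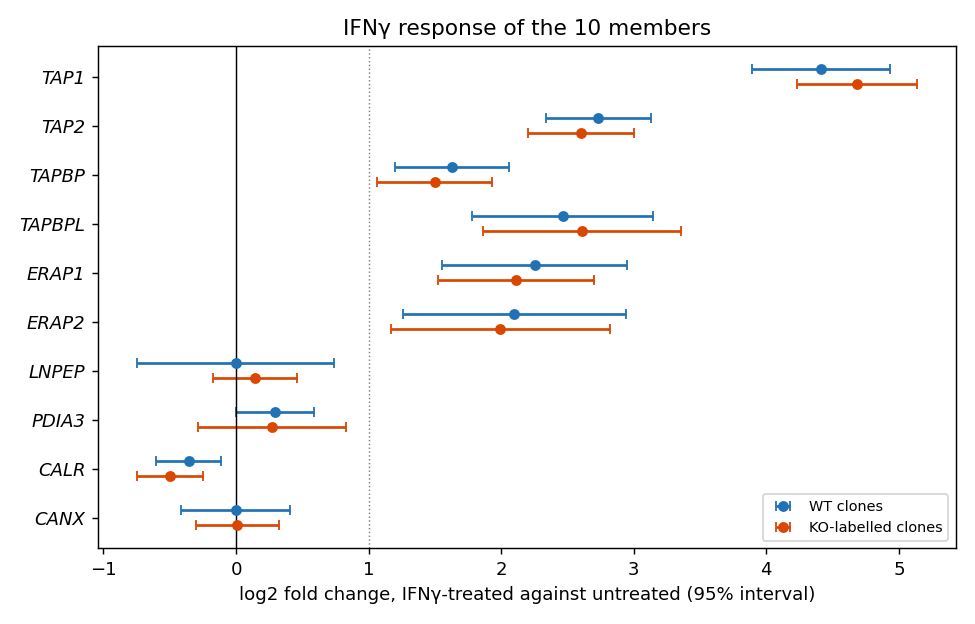
Log2 fold change with IFNγ of each member in WT and in KO-labelled clones, with 95% intervals from edgeR and a dotted line at a 2-fold rise. The intervals of TAP1, TAP2, TAPBP, TAPBPL, ERAP1 and ERAP2 lie above 1 in both genotypes, and those of LNPEP, PDIA3 and CANX span 0. Those of CALR lie below 0 in both, though CALR did not pass at the adjusted p.

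The order of the members by level per kilobase changed with IFNγ. In untreated WT libraries CALR led with 849 ± 40.8 CPM per kilobase (SD, n = 5), followed by PDIA3 (214 ± 32.8) and CANX (125 ± 27.1), with no overlap between these 3. TAPBP (16.8 ± 4.18), TAP1 (15.2 ± 4.66) and TAP2 (11.4 ± 2.61) came next with overlapping ranges between neighbours. LNPEP (4.87 ± 1.81), ERAP1 (2.07 ± 0.74), TAPBPL (1.42 ± 0.51) and ERAP2 (0.53 ± 0.23) closed the order, again with overlaps between neighbours.

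After IFNγ TAP1 stood second with 320 ± 41.6 CPM per kilobase (SD, n = 5), its range overlapping that of PDIA3 (260 ± 30.9), below CALR (656 ± 77.0). TAP2 (75.1 ± 9.37) passed TAPBP (51.6 ± 9.29), without overlap, and ERAP1 (9.77 ± 3.05) and TAPBPL (7.78 ± 2.18) passed LNPEP (4.8 ± 1.52). The KO-labelled libraries gave the same order after IFNγ, and untreated only TAP1 and TAP2 (12.1 and 12.2) stood the other way round. With the exon bases shared on the same strand left out, an alternative chosen after seeing the data, TAPBP came to 104 in treated WT and 92.2 in treated KO-labelled libraries and stood above TAP2. The exon length of ERAP1, 14961 bases, joins all its isoforms and lowers its level per kilobase.

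The comparison of WT with KO-labelled clones asks whether these genes differ between the 2 labels. No member passed in treated libraries, where 0.0155% of 19383 genes did, nor in untreated libraries, where 0.0154% of 19505 did. At an unadjusted p under 0.05, 1 of 10 members was found in each, CALR, where 4.35% of all genes were in treated and 4.79% in untreated libraries, and DESeq2 gave a count of 0 passing members too. TAP1 differed by 0.04 on the log2 scale in treated (95% interval -0.23 to 0.31, edgeR adjusted p = 0.996) and 0.32 in untreated libraries (-0.22 to 0.86, edgeR adjusted p = 0.980). For TAP2 these values were 0.02 (-0.24 to 0.28) and -0.10 (-0.57 to 0.37), and for TAPBP 0.18 (-0.14 to 0.50) and 0.05 (-0.46 to 0.56).

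The intervals were wider for TAPBPL, ERAP1 and ERAP2. TAPBPL differed by 0.29 (-0.22 to 0.79) in treated and 0.44 (-0.41 to 1.29) in untreated libraries, ERAP1 by 0.03 (-0.54 to 0.61) and -0.10 (-0.76 to 0.56), and ERAP2 by 0.14 (-0.56 to 0.85) and 0.04 (-0.86 to 0.95), and the untreated interval of TAPBPL reached 2.45-fold. The difference between the IFNγ responses, fitted over all 20 libraries, passed for no gene (0.00% of 21052), with 86 genes at an unadjusted p under 0.05 and no member among them. Its value was -0.29 for TAP1 (-0.88 to 0.30) and lay between -0.16 and 0.13 for the other members.

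Genes of other steps of class I presentation were compared as lists. Of the MHC-I chains 6 of 6 tested rose in both genotypes, with HLA-E (log2 fold change 3.75 in WT), HLA-F (3.07) and HLA-B (2.19) at the top, a median of 2.18, and HLA-G not tested. All 5 genes of the immunoproteasome and its activator PA28 rose, led by the catalytic subunits PSMB9 (4.90), PSMB10 (3.80) and PSMB8 (2.81, also the median of the list in WT). Among the regulators, IRF1 (4.96), CIITA (4.66) and NLRC5 (3.69) rose in WT, and in KO-labelled clones CIITA was at 2.19 (edgeR adjusted p = 0.0116). HLA-E and the guanylate-binding proteins GBP1 and GBP2 were the genes most like TAP1 over the 20 libraries (Pearson's r = 0.997, 0.996 and 0.996).

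Relatives of the members from the same protein families rarely passed. None of 9 other M1 aminopeptidases and none of 8 tested ABCB transporters passed as higher in either genotype. Of the aminopeptidases 1, LTA4H, passed as lower in KO-labelled clones (log2 fold change -0.80, edgeR adjusted p = 0.00561). In WT LTA4H had a log2 fold change of -0.62 and did not pass (edgeR adjusted p = 0.0191). Of 6 cytosolic peptidases, leucine aminopeptidase LAP3 alone rose (2.90 in WT, 2.76 in KO-labelled clones). None of 5 enzymes of N-glycan glucose trimming, which make and remove the tag that calnexin and calreticulin bind, passed.

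The other ER chaperones and oxidoreductases passed only as lower. In WT 2 of 13 passed as lower, SDF2L1 (log2 fold change -0.98, edgeR adjusted p = 0.00439) and MANF (-0.62, edgeR adjusted p = 0.00400), both ER stress genes, and in KO-labelled clones 3 of 13 did. Their median log2 fold changes were -0.21 and -0.22, beside -0.03 for all genes. BCAP31, which helps class I molecules leave the ER, and its homologue BCAP29 did not pass.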

How the data were processed

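RNA-seq counts of U2OS clones were used (5 WT and 5 KO-labelled clones, each with and without IFNγ, 20 libraries). The authors deposited raw counts per RefSeq gene without normalization, and the table's exon length column (in bases) was used to scale levels. Per the labels and methods, reads were aligned to GRCh38 with STAR 2.7.9a, filtered for unique mappers, so that reads shared with near-identical copies were lost, and counted with featureCounts 2.4.0. The strand setting is not given in the sources used here. All columns were matched to a sample.

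Counts were analysed in R 4.3.3 with edgeR 4.0.16 (TMM, filterByExpr, robust quasi-likelihood test), on 10 libraries per comparison and all 20 for the difference between responses. Genes passed at a Benjamini-Hochberg adjusted p under 0.01, and a fold over 2 was counted apart. The study's tool, DESeq2 (version 1.42.0 here), was an alternative, as were 2 other scalings, no filter, a replicate block and leaving out each clone. Standard errors follow from the F statistic. Ratios were compared by two-sided exact permutation tests in Python 3.11.15. Depth ran from 46652288 to 72952859 counts, and counting error limits rare genes most. The unpaired edgeR test was checked on counts simulated for the IFNγ comparison in WT, without differences between clones. The other tests were not checked in this way. A motif search and a count over the regulators are not reported here.

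The members and lists were chosen with earlier results of these data known. Named were all members, ZBTB48, up to 3 passing genes per list with the largest change in WT, the 3 genes most like each member, overlapping genes and PDIA3P1. Others, such as LTA4H, the export genes and the neighbours of LNPEP, were named after their values were seen.

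The labels tie the 2 libraries of a clone by number. Deviations from the group means over 21052 genes, which are not independent replicates, correlated at r = 0.717 to 0.846 within WT clones and 0.645 to 0.818 within KO clones 1 to 3, but at 0.00253 and 0.0729 for KO clones 4 and 5, which matched each other (0.682 and 0.769). Across genotypes, libraries with the same number correlated at -0.229 to 0.256, so these numbers form no pairs.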

Additional observations from a re-analysis of the deposited data

Results flagged for a closer look

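In 4 of 52 groups of 5 libraries or ratios the highest or lowest sample stood apart from the others by Dixon's criterion, where chance flags about 1 in 20 groups. WT replicate 1 was the lowest library for LNPEP, at 20.8 CPM untreated and 26.6 CPM treated, and for ERAP1 after IFNγ, at 65.8 CPM. KO replicate 2 was the highest untreated KO-labelled library for LNPEP, at 66.1 CPM. The IFNγ change of the TAP1 to TAP2 ratio differed between the genotypes, by -0.38 on the log2 scale for WT minus KO-labelled clones (exact permutation p = 0.0159, n = 5 clones each, adjusted p = 0.0398, past 0.05 and not past the 0.01 used for genes).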

How the results depend on the processing

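Of 982 recomputed values of 71 results, 876 were kept, 25 were weaker, 7 stronger (past the threshold only there) and 74 changed sign. The sign changes were among differences that had not passed. A fold change or ratio was kept if its direction and side of the threshold stayed the same. For ratios that threshold was an unadjusted exact permutation p under 0.05. A count of members or their order was kept if close to the main one, so WT counts of 4 and 8 beside 6 are among those kept. The count of members that passed in KO-labelled clones fell from 6 to 2 with the replicate block and KO replicates 4 and 5 left out, and ran from 2 to 6 with each clone left out (4 to 6 in WT). Between the genotypes, and for the difference between responses, the edgeR count of passing members was 0 in every alternative run. For the comparisons between genotypes the replicate block joins clones whose numbers form no pairs, so it is not a valid pairing there. The replicate block, the paired analysis, gave 8 in WT, where 34.3% of all genes passed in either direction. In KO-labelled clones it gave 6 as labelled and 7 with KO replicates 4 and 5 exchanged. The cause of these changes was not tested. The share of all genes that passed was not counted for the KO block fits or with single clones left out.

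On the log2 scale, CANX in WT turned to 4.7e-04 (DESeq2 size factors), 4.7e-04 and 4.2e-04 (DESeq2 without and with shrinkage) and 0.0063 (no filter), and LNPEP in WT to 0.0026 (no filter) and 0.040 (replicate block). CANX in KO-labelled clones turned to -0.031 (library totals) and -0.021 (block without KO replicates 4 and 5). Between genotypes, the replicate block, not a valid pairing there, turned treated ERAP1 to -0.0034 and LNPEP to -0.036. Untreated CANX turned to 0.025 (library totals) and 0.0078 (all 20 libraries). For the difference between responses, PDIA3 turned to -0.0085 (library totals) and CANX to 5.0e-04 (no filter) and 0.0099 (block without KO replicates 4 and 5).

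With each clone left out, CANX ran from -0.013 to 0.018 in WT, -0.0032 to 0.034 in KO-labelled clones, -0.12 to 0.077 between treated and -0.094 to 0.083 between untreated genotypes, and -0.052 to 0.0043 for the difference between responses. LNPEP ran from -0.042 to 0.063 in WT and -0.044 to 0.22 between treated genotypes. Between treated genotypes the ranges were -0.012 to 0.10 (TAP1), -0.024 to 0.071 (TAP2), -0.084 to 0.22 (ERAP1) and -0.010 to 0.34 (ERAP2). Between untreated genotypes they were -0.23 to 0.030 (TAP2), -0.10 to 0.18 (TAPBP), -0.27 to 0.099 (ERAP1) and -0.18 to 0.22 (ERAP2). For the difference between responses they were -6.5e-04 to 0.29 (ERAP1), -0.12 to 0.26 (ERAP2) and -0.044 to 0.062 (PDIA3). The ERAP1 to ERAP2 ratio ran from -0.047 to 0.19 in KO-labelled clones, -0.39 to 0.0019 between untreated genotypes and -0.057 to 0.30 between responses. Between treated genotypes TAP1 to TAP2 ran from -0.012 to 0.033 and TAPBP to TAPBPL from -0.17 to 0.011.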
